A study of Mus musculus with 4 samples.

Results

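Egr2, Epha4 and Phox2a are genes known for the early patterning of the hindbrain and for its first motor neurons. They were followed in RNA-seq of embryos of the outbred mouse strain CD-1 on embryonic day 9.5 (E9.5), and were chosen by name: all 3 were found among the 28765 genes measured. The mice bred had eaten a diet low in folate for more than 8 weeks, and neural tube defects (NTD) were induced in embryos of mothers injected into the peritoneum with methotrexate (MTX), which blocks folate metabolism, at 1.5 mg/kg on E7.5. The 4 groups were NTD brain, NTD spine, control brain and control spine, each 1 library. The labels carry 1 protocol text for every sample, so the sources used here leave unstated whether control mothers had the same diet or an injection, and how many embryos are behind a library.

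The hindbrain of the embryo is divided into segments called rhombomeres, each with its own set of transcription factors and its own motor neurons. Egr2, also called Krox20, is a zinc finger transcription factor that marks the third and the fifth rhombomere. Epha4 is a receptor tyrosine kinase for ephrins, proteins on neighbouring cells, and in those same rhombomeres it helps to keep their cells from mixing with the segments next to them; in the mouse hindbrain Egr2 activates it. Phox2a is a homeobox transcription factor needed for the oculomotor and trochlear motor nuclei and for noradrenergic neurons, and it is also made in branchial motor neurons, in cranial sensory ganglia and in sympathetic ganglia.

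Levels are given as FPKM, reads per kilobase of exon scaled to the reads of the library, as the authors deposited them. The FPKM resolved into whole reads, with library totals between 16272101 and 16911677. Ratios between libraries are given as log2 of (FPKM + 1), or as folds of reads per library total with a 95% counting interval. With 1 library per group nothing has a replicate check, no p-value was computed, and intervals and floors cover counting error alone. The 12940 genes that averaged 1 FPKM or more were compared, and Epha4 and Phox2a are among them while Egr2 is not. A gene is counted as at 2-fold by its log2 ratio of FPKM + 1, which understates the fold of low genes, so a gene can pass 2-fold in reads and not be counted.

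Regional genes followed the labels. The 18 forebrain and midbrain genes summed to 128 FPKM in NTD brain, 140 in control brain, 17.8 in NTD spine and 30.0 in control spine. The 18 trunk Hox genes summed to 16.7 FPKM in NTD brain and 0.753 in control brain, with 8 of them at 0 in control brain, and to 273 in NTD spine and 257 in control spine. The 14 heart genes summed to 224 FPKM in NTD brain, 54.7 in control brain, 534 in NTD spine and 801 in control spine, so neither tissue was free of others. In NTD spine against control spine, genes of endoderm and yolk sac had a median log2 ratio of -1.42 and genes of primitive red cells one of -0.78. The part of these tissues in the results below was not tested.

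The order of the 3 genes was the same in every library, with Epha4 the highest, Phox2a next and Egr2 close to 0. Phox2a was lower in both NTD libraries than in the control of the same tissue. Epha4 was close to its control in both tissues, a little lower in NTD brain and a little higher in NTD spine. Neither Epha4 nor Phox2a, the 2 members compared, reached a 2-fold difference in any of the 4 comparisons. Such differences were rare in all: in NTD brain against control brain 0.804% of compared genes passed 2-fold upward and 0.781% downward (1.58% together). In NTD spine against control spine 0.649% did upward and 0.680% downward (1.33% together). In control brain against control spine these shares were 0.981% and 2.38% (3.36% together), and in NTD brain against NTD spine 1.02% and 2.13% (3.15% together). In tissue libraries such as these, fewer cells of a type and less RNA per cell cannot be told apart.

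**Figure D1:**
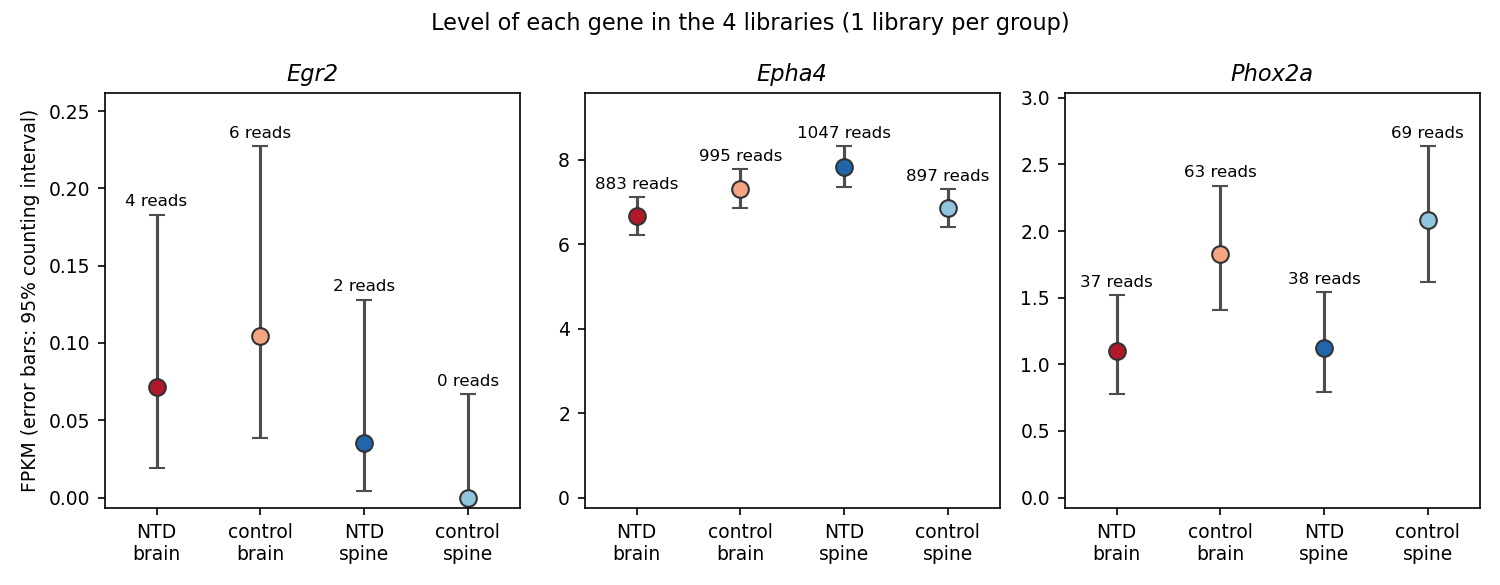
Level of Egr2, Epha4 and Phox2a in FPKM (vertical axis, a separate scale for each gene) in the 4 libraries, 1 point per library with its 95% counting interval and its reads. Egr2 rests on 0 to 6 reads, Epha4 lies between 6.66 and 7.83 FPKM, and both NTD libraries lie below both controls for Phox2a.

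Phox2a (ENSMUSG00000007946, GRCm38 chromosome 7, 101818313 to 101822726, plus strand) was at 1.10 FPKM in NTD brain, from 37 reads, and at 1.83 FPKM in control brain, from 63 reads. In spine it was at 1.12 FPKM in NTD, from 38 reads, and at 2.08 FPKM in control, from 69 reads. Both NTD libraries therefore lay below both controls. The level was 1.66-fold lower in NTD brain (interval 1.09 to 2.56), a log2 ratio of -0.43, and 1.85-fold lower in NTD spine (1.23 to 2.83), a log2 ratio of -0.54. Among compared genes 5.12% had a ratio as low or lower in brain, 3.68% in spine and 1.55% in both. An interval wholly on the lower side was itself common, with 25.7% of genes with whole reads in brain and 26.6% in spine.

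Phox2a did not differ between the tissues beyond counting error. Its level was lower by 1.14-fold in brain than in spine of controls (0.797 to 1.63), and by 1.02-fold in NTD brain against NTD spine (0.631 to 1.65). Among genes with whole reads the interval left out equality for 39.1% between the control tissues and for 43.5% between the NTD tissues. Ordered from high to low the libraries were control spine, control brain, NTD spine and NTD brain, and control brain against NTD spine was the one step between neighbours whose interval left out equality. With log2 ratios taken relative to genes of like GC content and length, Phox2a stood at -0.28 in brain and -0.34 in spine. The pseudocount also sets the size: with 0.1 FPKM the log2 ratios were -0.68 in brain and -0.83 in spine, and with 5 FPKM they were -0.16 and -0.21. An exon of Phox2a overlaps an exon of Inppl1, which lies on the other strand, by 95 bases. Inppl1 had 2898 reads in NTD brain, 2940 in control brain, 2839 in NTD spine and 3035 in control spine, and since the strand setting of the counting is not given, reads from the overlap cannot be assigned.

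The promoter of Phox2a is shown because Phox2a is the member with the lowest ratios; the letters searched, the E-box, are those bound by basic helix-loop-helix factors. The window, from RefSeq on GRCm38.p6, is chr7:101818063-101818362, plus strand, and runs from 250 bases before the start to 50 after it; all 3 members matched such windows. Capitals mark the match to CANNTG, searched on both strands.

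Phox2a: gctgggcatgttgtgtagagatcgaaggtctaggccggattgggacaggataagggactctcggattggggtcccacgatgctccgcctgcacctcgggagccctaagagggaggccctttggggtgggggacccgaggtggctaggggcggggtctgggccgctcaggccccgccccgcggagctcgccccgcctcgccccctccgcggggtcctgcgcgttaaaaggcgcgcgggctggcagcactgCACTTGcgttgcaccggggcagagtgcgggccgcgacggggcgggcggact

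The window held 1 match, across the start itself, and 72.3% of the 32544 distinct RefSeq windows hold at least 1. It held neither CAGCTG, which is in 16.4% of windows, nor CAGGTG, which is in 20.3%; both are special cases of CANNTG. These are letter matches and not measured sites.

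Of 21 genes of cranial and branchial motor neurons, Phox2a included, 14 were compared. In NTD brain 10 of the 14 were lower, none reached 2-fold, and the median log2 ratio was -0.17. In NTD spine 9 were lower, none reached 2-fold, and the median was -0.050. Over all compared genes 56.4% were lower in NTD brain with a median of -0.032, and 58.0% in NTD spine with a median of -0.038. Isl1, a LIM homeobox gene of newly born motor neurons and sensory neurons, was at 5.34 FPKM in NTD brain and 5.50 in control brain, and at 8.40 in NTD spine and 7.78 in control spine. Both of its intervals include equality. Nkx6-1, a gene of the progenitor domains of motor neurons, was at 5.63 FPKM in NTD brain and 6.54 in control brain, and at 8.16 in NTD spine and 8.36 in control spine. Olig2, which marks the progenitors of somatic motor neurons, was at 5.09 FPKM in NTD brain and 5.19 in control brain, and at 6.62 in NTD spine and 7.94 in control spine, 1.20-fold lower in spine (1.02 to 1.41). Nkx2-9, a gene of the ventral hindbrain progenitors, was at 9.61 FPKM in NTD brain and 9.50 in control brain, and at 3.48 in NTD spine and 3.70 in control spine. Other genes of the list were lower beside Phox2a. Tbx2 was at 6.08 FPKM in NTD brain and 7.75 in control brain, and at 5.17 in NTD spine and 7.37 in control spine. Isl2 had 44 reads in NTD brain, against 77 in control brain, and 93 in NTD spine and 133 in control spine. Of the 14 compared, 4 were higher in NTD brain and 5 in NTD spine.

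The genes of later steps were sparse. Tbx20, made in branchial motor neurons and in heart, was at 0.587 FPKM in NTD brain and 0.389 in control brain, and at 2.19 in NTD spine and 2.22 in control spine. Heart genes were also higher in NTD brain, in all 13 that were compared, against 43.6% of all compared genes. The part of heart tissue in the Tbx20 value was not tested. Lhx4, which helps to direct motor axons out of the ventral neural tube, had 10 reads in NTD brain, against 29 in control brain, 2.82-fold lower (1.34 to 6.50), and 33 in NTD spine and 88 in control spine, 2.72-fold lower (1.81 to 4.19). It was under the level filter. Mnx1, of somatic motor neurons, had 3 reads in NTD brain, against 1 in control brain, and 40 in NTD spine and 45 in control spine. Chat, the enzyme that makes acetylcholine, had 6 reads in NTD brain, against 0 in control brain, and 11 in NTD spine and 8 in control spine.

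Phox2a also acts in autonomic and noradrenergic neurons, and 9 of 14 genes of that list were compared. In NTD brain 6 were lower and 3 higher (median -0.25), and in NTD spine 8 were lower and 1 higher (median -0.27). Over all compared genes 56.4% were lower in NTD brain and 58.0% in NTD spine. Ret was higher in both, with 96 reads in NTD brain, against 51 in control brain, and 372 in NTD spine and 281 in control spine. Ddc had 171 reads in NTD brain, against 168 in control brain, and 243 in NTD spine and 297 in control spine. Th, the first enzyme of catecholamine synthesis, had 12 reads in NTD brain, against 31 in control brain, and 25 in NTD spine and 52 in control spine. It was lower in both tissues, at 0.308 FPKM in NTD brain and 0.775 in control brain, and 2.12-fold lower in spine (1.29 to 3.57). Dbh, the enzyme that turns dopamine into noradrenaline, had 4 reads in NTD brain, against 11 in control brain, and 8 in NTD spine and 17 in control spine. Its intervals include equality in both tissues. Th and Dbh were under the level filter and are not among the 9 compared.

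Markers of other neurons were lower beside Phox2a. For scale, 56.4% of all compared genes were lower in NTD brain and 58.0% in NTD spine, 0.781% and 0.680% by 2-fold. Genes of cranial sensory ganglia and placodes were lower in NTD brain in 8 of 9 compared genes (median -0.38, none at 2-fold), and in NTD spine in all 9 (median -0.37). Neurog1, a proneural gene of those ganglia, was the 1 gene at 2-fold in spine, at 2.39 FPKM in NTD and 6.09 in control. Early neuron genes were lower in all 20 compared genes in NTD brain (median -0.54) and in 19 of 20 in NTD spine (median -0.57, 4 at 2-fold). Their summed level was 178 FPKM in NTD brain, 261 in control brain, 96.5 in NTD spine and 165 in control spine. Phox2a lay inside the range of that list in both tissues, from -0.92 to -0.10 in brain and from -1.18 to 0.026 in spine. Neural progenitor genes were lower in 13 of 14 in NTD brain (median -0.26) and in 11 of 14 in NTD spine (median -0.13). Whether fewer neurons of any kind account for the Phox2a values was not tested. Neural crest and glial precursor genes were closer to level, with medians of -0.048 in brain and -0.081 in spine over 10 compared genes.

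**Figure D2:**
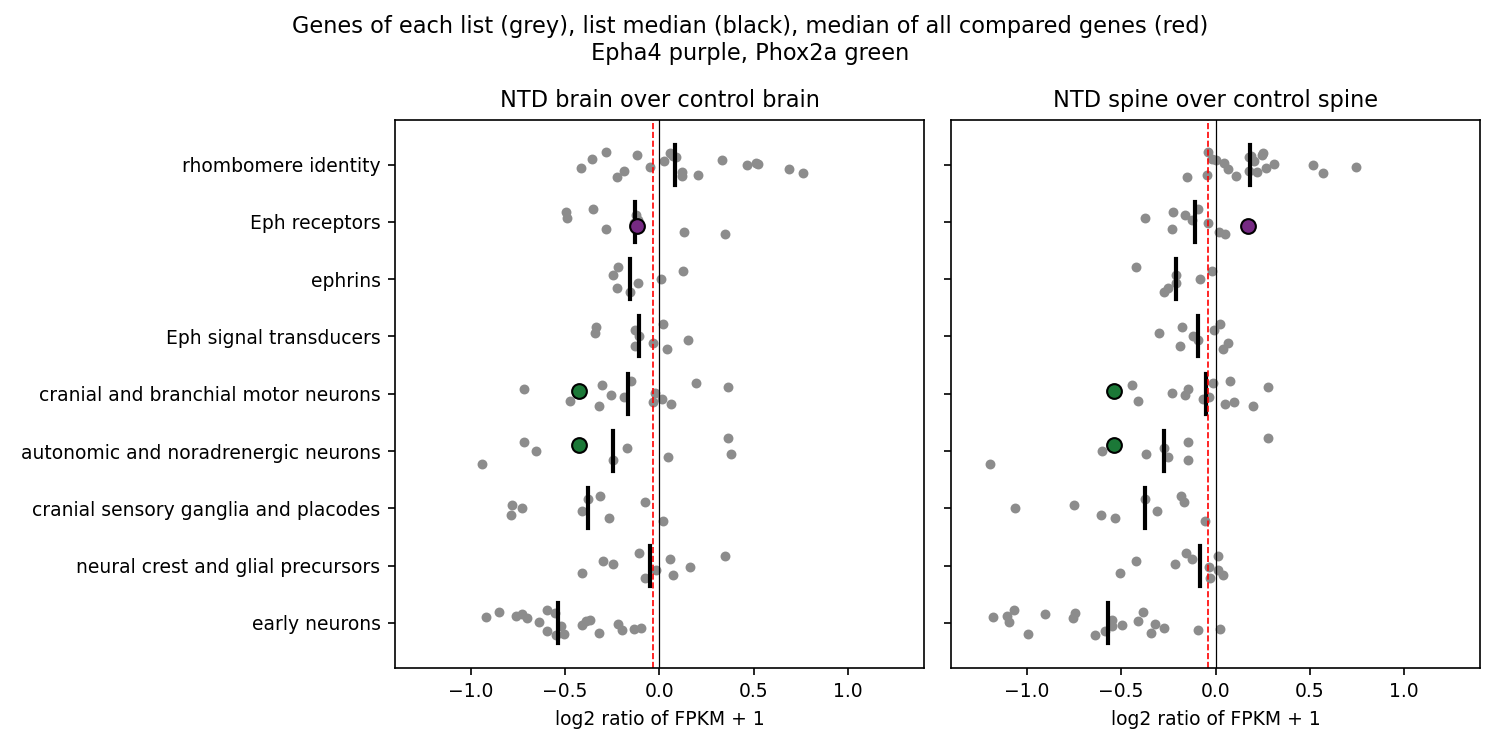
Log2 ratio of FPKM + 1 (horizontal axis) of NTD over control in brain (left) and spine (right), 1 grey point per compared gene, with lists down the page, list medians in black and the median of all compared genes as a red dashed line. Phox2a (green) lies at -0.43 and -0.54, and Epha4 (purple) at -0.12 and 0.17.

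Epha4 (ENSMUSG00000026235, GRCm38 chromosome 1, 77367185 to 77515088, minus strand) was measured with the most depth of the 3. It was at 6.66 FPKM in NTD brain, from 883 reads, and at 7.31 FPKM in control brain, from 995 reads. In spine it was at 7.83 FPKM in NTD, from 1047 reads, and at 6.84 FPKM in control, from 897 reads. The highest library was NTD spine and the lowest NTD brain, and these differed by 1.18-fold (1.07 to 1.29). No step between neighbours in the order NTD spine, control brain, control spine and NTD brain was beyond counting error.

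The ratio of Epha4 in NTD brain to control brain was 0.911 (0.831 to 0.999), a log2 ratio of -0.12, which 32.8% of compared genes reached or lay below. In spine the ratio of NTD to control was 1.14 (1.05 to 1.25), a log2 ratio of 0.17, which 13.4% of compared genes reached or exceeded. Both intervals leave out equality, by a narrow margin in brain, as did those of 41.8% of genes in brain and 43.8% in spine. The brain log2 ratio minus the spine log2 ratio was -0.29. It rests on 4 libraries with no replicate, and was not tested. Between tissues Epha4 was 1.07-fold higher in control brain than in control spine (0.974 to 1.17), and 1.18-fold lower in NTD brain than in NTD spine (1.07 to 1.29).

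Among the 14 Eph receptors Epha4 was the fourth by mean level, at 7.16 FPKM, after Ephb4, Ephb2 and Ephb3. Of the 10 compared, 8 were lower in NTD brain (median -0.13) and 7 in NTD spine (median -0.11), and none reached 2-fold. Over all compared genes 56.4% were lower in NTD brain (median -0.032) and 58.0% in NTD spine (median -0.038). In spine Epha4 had the highest ratio of the 10, and the other 9 lay between -0.37 and 0.048. Ephb4, a receptor also made by venous endothelium, was at 23.2 FPKM in NTD brain and 33.0 in control brain, 1.42-fold lower (1.34 to 1.51). In spine it was at 31.2 FPKM in NTD and 36.7 in control, 1.18-fold lower (1.11 to 1.24). Ephb2, which guides axons and sorts cells, was at 7.46 FPKM in NTD brain and 10.9 in control brain, 1.46-fold lower (1.37 to 1.56). In spine Ephb2 was at 6.20 FPKM in NTD and 8.31 in control, 1.34-fold lower (1.25 to 1.44). Epha7, another receptor of the neural tube, was at 6.52 FPKM in NTD brain, 7.25 in control brain, 4.996 in NTD spine and 5.15 in control spine. Epha5, Epha6 and Epha10 were under the level filter. Epha6 had at most 2 reads in a library. Epha5 was lower in NTD brain, with 47 reads against 71 in control brain, and higher in NTD spine, with 39 reads against 26 in control spine. Epha10 was lower in NTD brain, with 68 reads against 114 in control brain, and in NTD spine, with 16 reads against 45 in control spine.

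Of the 8 ephrins 7 were compared. In NTD brain 5 were lower (median -0.15), and in NTD spine all 7 (median -0.21), with none at 2-fold. The shares of all compared genes that were lower were 56.4% in brain and 58.0% in spine. Efnb3, a transmembrane ephrin that binds Epha4, was at 33.3 FPKM in NTD brain and 38.9 in control brain, 1.17-fold lower (1.10 to 1.25), and at 25.5 FPKM in NTD spine and 34.5 in control spine, 1.35-fold lower (1.26 to 1.45). Efnb2, which also binds Epha4 and is made in the even-numbered rhombomeres, was at 24.2 FPKM in NTD brain and 22.2 in control brain, and at 19.9 in NTD spine and 20.2 in control spine. Efna5, which is anchored to the membrane by a lipid, was at 17.5 FPKM in NTD brain and 17.4 in control brain, and at 13.5 in NTD spine and 14.3 in control spine. Efnb1 was at 25.6 FPKM in NTD brain and 30.6 in control brain, and at 20.8 in NTD spine and 24.2 in control spine.

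Genes of proteins that carry the Eph signal inside the cell were lower in a share near that of all compared genes. Of 9 compared transducers 6 (66.7%) were lower in each NTD library, against 56.4% of all compared genes in brain and 58.0% in spine. Their medians were -0.11 in brain and -0.091 in spine, and none reached 2-fold. Intervals wholly on the lower side were found for 3 of the 9 in brain and 4 in spine, where 25.7% and 26.6% of genes had one. Intervals wholly on the higher side were found for 1 in brain and 0 in spine. Chn1, the chimaerin through which Epha4 acts on Rac in spinal circuits, was at 4.24 FPKM in NTD brain and 4.74 in control brain, and at 3.53 in NTD spine and 4.16 in control spine. Adam10, a protease that cleaves ephrins from the membrane, was at 26.7 FPKM in NTD brain and 25.9 in control brain, and at 29.2 in NTD spine and 28.4 in control spine. Src was at 12.3 FPKM in NTD brain and 15.9 in control brain, and at 14.5 in NTD spine and 18.1 in control spine.

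**Figure D3:**
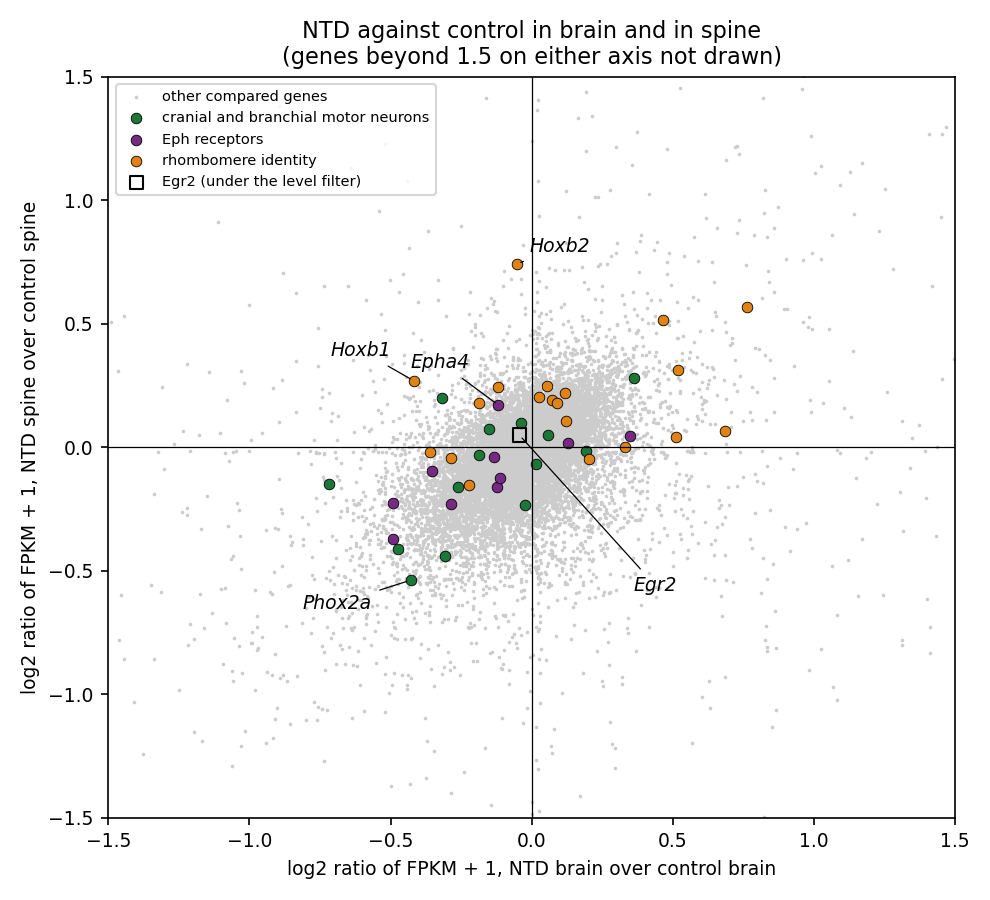
Log2 ratio of FPKM + 1 of NTD over control in brain (horizontal axis) and in spine (vertical axis), 1 point per compared gene, with motor neuron, Eph receptor and rhombomere genes in colour. Phox2a sits at the lower left (-0.43 and -0.54), Epha4 at the upper left (-0.12 and 0.17), and Egr2, drawn as an open square, is under the level filter.

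Egr2 (ENSMUSG00000037868, GRCm38 chromosome 10, 67535475 to 67542188, plus strand) was barely detected. It had 4 reads in NTD brain (0.0715 FPKM) and 6 in control brain (0.104 FPKM), and 2 reads in NTD spine (0.0354 FPKM) and 0 in control spine. In control spine the level of 3 reads, taken as the floor, is 0.0543 FPKM, and the exact Poisson interval of the count of 0 reaches 0.0667 FPKM. In brain the level was 1.46-fold lower in NTD, with an interval from 0.346 to 7.04 that covers a difference in either direction. No fold is given in spine, where both libraries were at or under 3 reads. A difference in Egr2 between NTD and control was not detectable at this depth. Between the control tissues it had 6 reads in brain and 0 in spine, and the counting interval of that ratio began at 1.13.

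Egr2 also belongs to the immediate early genes, which cells transcribe within minutes of a stimulus, and its relative Egr1 had many more reads. Egr1, the family member most widely induced, was at 8.33 FPKM in NTD brain and 0.752 in control brain, from 615 and 57 reads, and at 8.61 FPKM in NTD spine and 1.08 in control spine, from 641 and 79 reads. That is a level 11.1-fold higher in NTD brain (8.44 to 14.8); it was 7.95-fold higher in NTD spine (6.29 to 10.2). Egr3 had 14 reads in NTD brain, against 6 in control brain, and 9 in NTD spine and 4 in control spine. Egr4 had 3 reads in NTD brain and 0 in the other libraries. Nab1, a corepressor that binds Egr proteins, was at 3.36 FPKM in NTD brain and 3.10 in control brain, and at 5.05 in NTD spine and 4.36 in control spine. Nab2, its relative, was at 2.91 FPKM in NTD brain and 4.10 in control brain, 1.41-fold lower (1.13 to 1.76), and at 2.29 FPKM in NTD spine and 3.28 in control spine, 1.43-fold lower (1.12 to 1.84).

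Of 28 immediate early genes 20 were compared. In NTD brain 16 were higher and 3 at least 2-fold, with a median of 0.35. In NTD spine 15 were higher and 4 at least 2-fold, with a median of 0.34. Over all compared genes 43.6% were higher in NTD brain and 0.804% at least 2-fold, and 41.9% and 0.649% in NTD spine. Those at 2-fold in both were Egr1, Fos and Fosb, and in spine also Ccn1, a secreted matrix protein, at 41.8 FPKM in NTD spine and 16.9 in control spine. In brain Ccn1 was at 31.1 FPKM in NTD and 15.2 in control, 2.05-fold higher in reads (1.84 to 2.28) and just short of 2-fold by the log2 ratio, at 0.99. Fos was at 11.4 FPKM in NTD brain and 0.302 in control brain, and at 12.4 in NTD spine and 1.67 in control spine. Fosb was at 13.4 FPKM in NTD brain and 0.0379 in control brain, and at 12.7 in NTD spine and 0.522 in control spine. Ier2 was near level at 49.9 FPKM in NTD brain and 47.8 in control brain, and 52.8 in NTD spine and 50.9 in control spine. Egr2 belongs to the same class and had 4 reads in NTD brain and 2 in NTD spine.

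**Figure D4:**
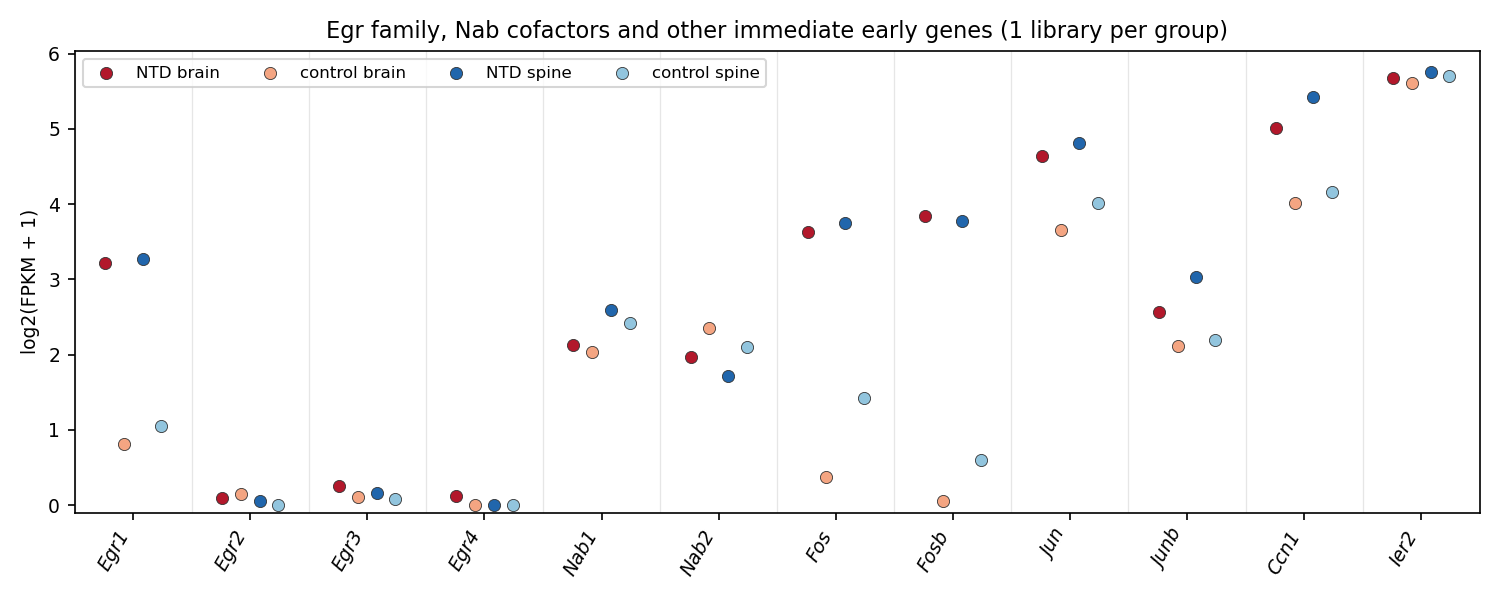
Level as log2 of (FPKM + 1) (vertical axis) of the Egr genes, their Nab cofactors and other immediate early genes in the 4 libraries, 1 point per library. Egr1, Fos and Fosb are high in both NTD libraries, whereas Egr2, Egr3 and Egr4 are near 0 in all 4.

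The promoter of Egr2 is shown because it carries the element through which serum response factor acts on many immediate early genes. The window, from RefSeq on GRCm38.p6, is chr10:67537619-67537918, plus strand, with the same extent around the start. Capitals mark the CArG box, searched on both strands.

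Egr2: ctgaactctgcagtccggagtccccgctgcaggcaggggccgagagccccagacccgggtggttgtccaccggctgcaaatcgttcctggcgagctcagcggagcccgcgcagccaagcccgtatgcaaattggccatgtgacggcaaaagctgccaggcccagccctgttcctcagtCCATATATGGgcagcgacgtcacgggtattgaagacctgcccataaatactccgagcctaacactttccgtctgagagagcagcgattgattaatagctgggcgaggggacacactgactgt

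A CArG box was found in 4 of the 5 RefSeq windows of Egr2, which partly overlap, and in 1.64% of all windows. The windows of Egr2 with CCATATATGG hold it at the same place in the genome, so their matches are not separate boxes. The remaining window with a match holds CCTTTTTTGG. These are letter matches and not measured sites. Srf, the gene of the factor, was at 27.9 FPKM in NTD brain and 23.2 in control brain, and at 34.6 in NTD spine and 31.0 in control spine. The windows of Fos, Fosb and Junb held no CArG box. Nor did that of Epha4, which also held neither GCGTGGGCG nor GCGGGGGCG, letters that Egr proteins bind and that 3.5% of windows hold. Only promoter windows were searched, and a missing match says nothing of binding elsewhere.

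Other genes of the rhombomere list were present, although Egr2 was close to 0. Of 22 in the list, 20 were compared. In NTD brain 13 were higher and 7 lower, with a median of 0.080, and in NTD spine 16 were higher and 4 lower, with a median of 0.19. None reached 2-fold in either. Of all compared genes 43.6% were higher in NTD brain and 41.9% in NTD spine. Intervals wholly on the higher side were found for 6 of the 20 in brain and 12 of the 20 in spine, where 16.1% and 17.2% of genes had one. Between the control tissues 17 of the 20 were lower in brain and 10 of these by 2-fold or more. Among all compared genes 48.6% were lower in brain and 2.38% by 2-fold or more. The spine library therefore held more of these transcripts than the brain library. The list as a whole does not single out the hindbrain here, and its presence is no measure of rhombomere identity.

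Hoxb1, the Hox gene of the fourth rhombomere, was at 2.17 FPKM in NTD brain and 3.23 in control brain, 1.49-fold lower (1.12 to 1.99). In spine it was at 11.9 FPKM in NTD and 9.69 in control, 1.23-fold higher (1.07 to 1.41). Hoxb2, which Egr2 activates in the mouse hindbrain, was at 1.04 FPKM in NTD brain and 1.12 in control brain, with an interval that includes equality. In spine it was at 5.39 FPKM in NTD and 2.82 in control, 1.91-fold higher (1.57 to 2.33). Hoxa2, which sets the identity of the second rhombomere, was at 4.28 FPKM in NTD brain and 3.86 in control brain, and at 11.1 in NTD spine and 9.38 in control spine.

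Hoxb3 had 98 reads in NTD brain, against 53 in control brain, 1.90-fold higher (1.35 to 2.70), and was at 10.6 FPKM in NTD spine and 7.08 in control spine. Hoxa3, its paralogue, was at 0.474 FPKM in NTD brain and 0.678 in control brain, and at 5.21 in NTD spine and 4.49 in control spine. All 18 trunk Hox genes compared were also higher in NTD brain (median 0.65), as were 12 of 18 in NTD spine (median 0.10). The shares of all compared genes that were higher were 43.6% and 41.9%. The part of trunk tissue in the values of the Hox genes was not tested.

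**Figure D5:**
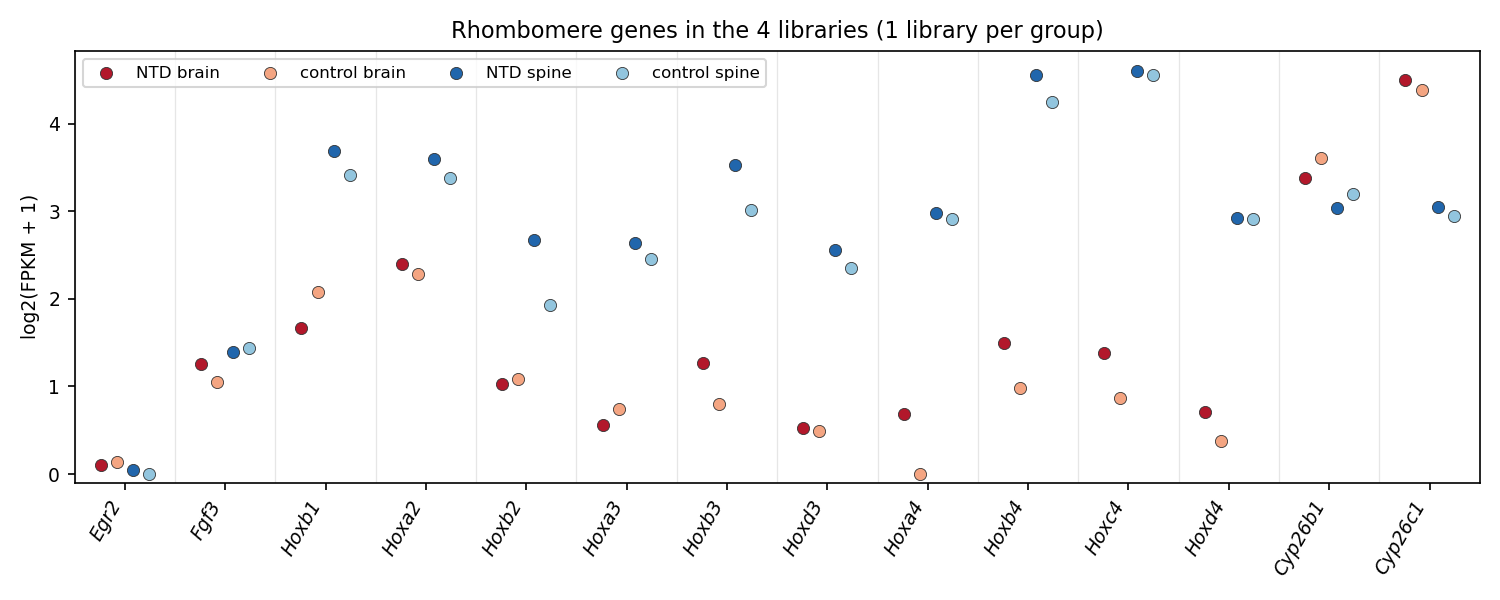
Level as log2 of (FPKM + 1) (vertical axis) of rhombomere genes in the 4 libraries, 1 point per library. Egr2 is near 0 in all 4, most Hox genes are higher in both spine libraries than in both brain libraries, and Cyp26c1, a retinoic acid degrading enzyme, is higher in both brain libraries.

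Genes with the profile nearest to each member over the 4 libraries were sought among 11199 compared protein-coding genes, by the root mean square difference of centred log2(FPKM + 1) values. For Phox2a these were mt-Co3, C1qtnf6, Sprtn, Vmac and Gm9774, at 0.0195 to 0.0255, and 198 genes lay within 0.1. For Epha4 they were Neto2, Isyna1, Ncoa6, Gpn3 and Kti12, at 0.0077 to 0.0121, and 3023 genes lay within 0.1. With a pseudocount of 0.1 FPKM, 1 of the 5 named for Phox2a and 4 of the 5 named for Epha4 were again among the nearest 5. Egr2 had too few reads for a profile.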

How the data were processed

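RNA-seq of 4 libraries was used, 1 per group, with groups taken from the sample titles. The authors deposited 1 table of FPKM per gene and library; the build was mm10 and the aligner HISAT2 2.0.1, per the submitters' processing notes. The sources used here do not give the counting program, annotation, strand setting or filters. Identifiers were matched to GENCODE M21 (GRCm38), where 28698 of 28765 matched. Multiplying FPKM by the length of all merged exons gave values that were whole multiples of a step, and so reads and library totals; 98.6% of matched genes were whole in all libraries within 0.01 reads. Log2 ratios used a pseudocount of 1 FPKM and a filter of 1 FPKM on the mean. Folds are ratios of reads per library total with exact (Clopper-Pearson) conditional binomial intervals at 95%; level intervals are exact Poisson. The floor was 3 reads per library. The members and the gene lists were chosen with earlier results of these data known. The genes named are the members, the list genes at 2-fold, those highest in level or fixed by role, and the 5 nearest in profile; some genes under this rule are not reported here. Steps were tested on simulated reads. Python 3.11.15, numpy 2.4.6, scipy 1.17.1 and pandas 2.3.3 were used. Other pseudocounts, filters, scalings, thresholds and a GC and length adjustment were tried.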

Additional observations from a re-analysis of the deposited data

Results flagged for a closer look

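Some genes had ratios of opposite sign in brain and in spine, NTD against control. Epha4 had a log2 ratio of -0.12 in brain and 0.17 in spine. Egr2 had -0.044 in brain and 0.050 in spine, on 0 to 6 reads a library. Hoxb1 had -0.42 in brain and 0.27 in spine. Hand2, a factor of sympathetic precursors, heart and limb, had 0.38 in brain and -0.37 in spine. For Epha4, Hoxb1 and Hand2 the counting interval left out equality in both tissues, by a narrow margin for Epha4 in brain. With 1 library per group none of these differences between tissues was tested.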

How the results depend on the processing

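No paired analysis was possible because each group has 1 library, so the groups of a comparison share a single replicate number; a fit over both tissues with tissue as a block would leave 1 residual degree of freedom and was not run. The log2 ratios of Epha4 and Phox2a kept their sign in all 4 comparisons under each of the 5 alternatives that can change them (pseudocounts of 0.1 and 5 FPKM, equal FPKM sums, median ratio scaling, and adjustment for GC content and length) and never reached 2-fold. For Phox2a they ranged from -0.68 to -0.16 in brain and from -0.83 to -0.21 in spine, NTD against control; for Epha4 from -0.15 to -0.078 in brain and from 0.12 to 0.22 in spine. Egr2 moved with the pseudocount: at 0.1 FPKM its log2 ratio was -0.25 in brain and 0.44 in spine (difference -0.69), 1.03 between the control tissues and 0.34 between the NTD tissues, all on 0 to 6 reads. Its spine value was 0.052 with equal sums, 0.051 with median ratio scaling and 0.093 with the GC and length adjustment.

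Counts of genes at 2-fold, higher and lower, were 104 and 101 in NTD brain against control, 84 and 88 in NTD spine against control, 127 and 308 in control brain against control spine, and 132 and 275 in NTD brain against NTD spine. In that order they were 230 and 214, 134 and 246, 228 and 484, and 272 and 454 with a pseudocount of 0.1. They were 27 and 11, 16 and 13, 26 and 113, and 24 and 77 with a pseudocount of 5. With a filter of 5 FPKM they were 52 and 25, 19 and 34, 31 and 108, and 38 and 97. A threshold of 1.5-fold gave 262 and 331, 188 and 379, 376 and 682, and 441 and 632, and 4-fold gave 17 and 9, 13 and 5, 28 and 125, and 30 and 75. Without a filter 164 and 171 were called in NTD brain, 153 and 149 in NTD spine and 203 higher in control brain. Among protein-coding genes the counts were 35 and 9 in NTD brain, 11 and 31 in NTD spine, 80 higher in control brain and 87 higher in NTD brain against NTD spine. List medians kept their sign in all 104 recomputed values, and 89 stayed within the counting bounds. Outside them, with pseudocounts of 0.1 and 5, were early neuron genes in spine (-0.88 and -0.28), forebrain and midbrain genes in spine (-1.52 and -0.12), trunk Hox genes in brain (2.47 and 0.16) and heart genes in brain (1.90 and 0.67). So were early neuron genes in brain with a pseudocount of 5 (-0.28) and immediate early genes in brain without a filter (0.17). With the 5 FPKM filter immediate early genes in spine (0.55), early neuron genes in spine (-0.75), forebrain and midbrain genes in spine (-0.59), trunk Hox genes in brain (0.83) and heart genes in brain (1.69) lay outside. Causes were not tested. Depth limits Egr2 most, with 0 to 6 reads, then Phox2a with 37 to 69.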

Other observations

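Genes under the level filter held further neuronal differences. Lhx3, Tlx3 and Prph were chosen here after their low NTD values were seen, so they do not stand for the genes under the filter. Slc5a7, of the motor neuron list, had 19 reads in NTD brain, against 12 in control brain, and 9 in NTD spine and 10 in control spine. Slc18a3, of the same list, had 10 reads in each brain library, and 18 in NTD spine and 36 in control spine. Lhx3, a LIM homeobox gene of somatic motor neurons and ventral interneurons, had 3 reads in NTD brain, against 36 in control brain, 11.7-fold lower (3.69 to 59.3), and 42 in NTD spine and 65 in control spine, 1.58-fold lower (1.06 to 2.39). Tlx3, a homeobox gene of sensory and noradrenergic neurons, had 14 reads in NTD brain, against 45 in control brain, 3.13-fold lower (1.69 to 6.18), and 7 in NTD spine and 13 in control spine, with an interval that includes equality. Prph, which encodes the intermediate filament peripherin of peripheral and motor neurons, had 5 reads in NTD brain, against 10 in control brain, and 5 in NTD spine and 27 in control spine, 5.51-fold lower in spine (2.09 to 18.3).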
